A study of Mus musculus with 4 samples.

Results

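Fc receptors and myeloid ITAM signalling were followed in mouse liver through 8 genes, chosen by symbol: the receptors Fcgr1, Fcgr3 and Fcgr4, the adaptors Fcer1g and Tyrobp, the kinase Syk and the lectins Clec7a and Clec12a. They matched 9 probes, out of 33767 probes that matched 23462 genes. On all 4 arrays 7 of the 8 genes were well above background, the scanner software's call for a spot brighter than its surroundings. The exception was Clec7a, which was not well above background on 1 array.

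The study asked how loss of LPIAT1, the enzyme encoded by Mboat7, in the liver changes fatty liver disease in mice on chow or a high-fat diet (HFD). Liver RNA of each of 4 groups was hybridised to 1 one-colour Agilent array, and all 4 arrays were on 1 slide read in 1 scan. With no replicate arrays nothing was tested, and the sources do not say whether RNA was taken from 1 mouse per group or pooled. The F/F groups carry floxed Lpiat1 alleles and no Cre, and the LKO groups carry the same floxed alleles with Alb-Cre, which is active in hepatocytes, so that other liver cells keep the gene. Mice of all groups were male, of C57BL/6 background and 24 weeks old, and had eaten chow or HFD for 18 weeks, starting at 6 weeks of age.

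Fc receptors bind the constant part of antibodies and let phagocytes take up antibody-coated particles. The activating receptors cannot signal alone and pair with small adaptors whose cytoplasmic tails carry the ITAM, a tyrosine motif. Src-family kinases phosphorylate it, Syk docks on it and starts the downstream cascade, and receptors with the inhibitory counterpart, the ITIM, recruit phosphatases that oppose it. In liver the system is best known from Kupffer cells, the resident macrophages, and from monocytes that enter the organ.

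Signals are given as the scanner software reported them, before any scaling between arrays. Differences are log2 differences after each array was set to its 75th percentile, which on chow was 222 in F/F and 213 in LKO, and on HFD 263 in F/F and 296 in LKO. A pair of replicate spots of a probe differed with a SD of 0.09 over 296 probes, and this spread leaves out differences between mice. A pair of probes for a gene gave differences that varied more, with a SD of 0.32 for LKO against F/F on HFD, 0.28 for the same on chow, 0.37 for HFD against chow in F/F and 0.41 in LKO. The share of spots well above background on chow was 54.2% in F/F and 53.0% in LKO, and on HFD 54.6% and 57.0%. It counts spots and does not measure how far signals lay above background, and it was highest on LKO HFD.

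The labelled tissue was borne out by hepatocyte genes, since 12 of 12 were well above background on every array. Alb, the brightest of them on 3 arrays, had signals of 231569 (F/F) and 228565 (LKO) on chow, and of 221091 and 222615 on HFD. Mboat7 has 1 probe, with 1102 in F/F and 861 in LKO on chow, and 1181 and 1100.0 on HFD. The scaled LKO level was lower than that of F/F on either diet (-0.30 on chow, -0.27 on HFD). Whether the probe falls inside the deleted exons is not known here, so it does not check the genotype.

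Fcgr1 is the high-affinity receptor for IgG. Its signal on chow was 80.9 in F/F and 64.5 in LKO, and on HFD 179.6 in F/F and 422 in LKO. The LKO HFD array was the brightest by a wide margin, and the chow arrays were the dimmest. After scaling, LKO on HFD was 2.09-fold above F/F on HFD (log2 difference 1.06), and on chow the difference was -0.27, within the spread between probes. HFD against chow gave 0.90 in F/F and 2.24, or 4.72-fold, in LKO. In a bulk sample such as these, fewer cells of a type and less RNA per cell cannot be told apart. With the normexp alternative, which also adds an offset and starts from the median spot signal, the diet differences were 0.58 in F/F and 1.46 in LKO.

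Fcgr3 is a low-affinity receptor for IgG in immune complexes. It gave 189 in F/F and 208 in LKO on chow, and 303 and 581 on HFD. Alone among the 8 genes it was lowest on the F/F chow array, and on chow it was higher in LKO by 0.20. On HFD it was higher in LKO by 0.77, which is 1.71-fold, and the diet difference was 0.43 in F/F and 1.01 in LKO. Fcgr4, a receptor for IgG with intermediate affinity found on monocytes, macrophages and neutrophils, had signals of 328 in F/F and 309.7 in LKO on chow, and of 627 and 1372 on HFD. The chow arrays were alike, the F/F HFD array was higher and the LKO HFD array was the highest. The log2 difference between LKO and F/F was 0.96 on HFD, 1.95-fold, and -0.03 on chow, and that between HFD and chow was 0.69 in F/F and 1.68 in LKO.

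**Figure D1:**
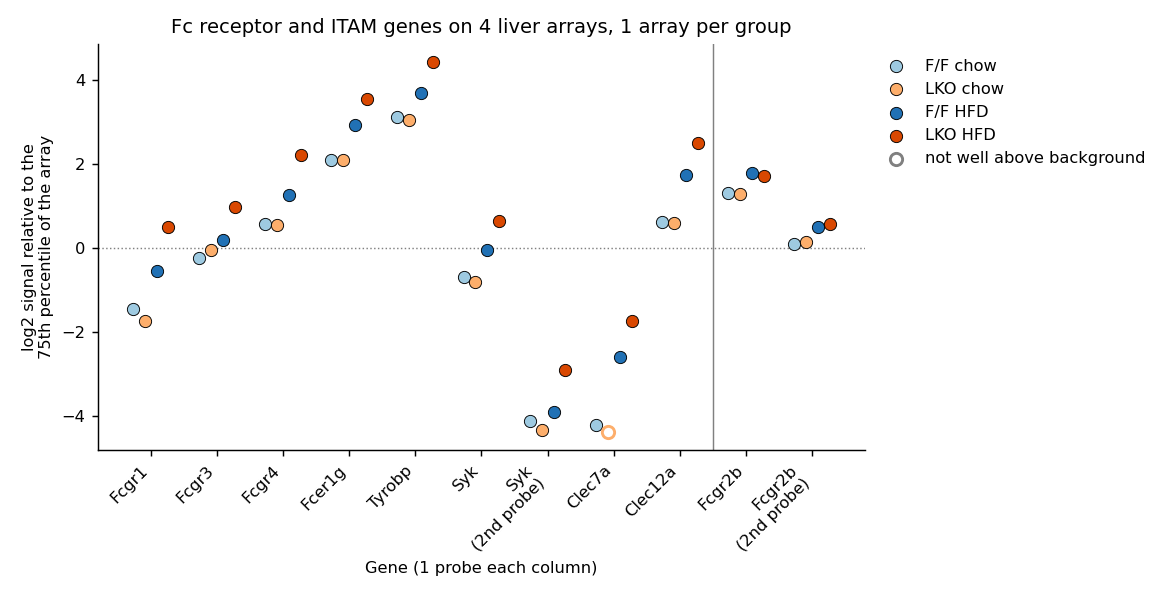
Level of each probe on each of the 4 arrays, as log2 signal relative to the 75th percentile of the array, with 1 array per group and open circles where a probe was not well above background. In all 9 probes of the 8 genes the LKO HFD array was the highest, while for Fcgr2b, right of the line, the HFD arrays lie close together at 1.80 in F/F and 1.72 in LKO by its brighter probe.

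The plot of levels by array shows the same shape for most probes, with the chow arrays low and close, F/F HFD between and LKO HFD on top. Because signals of different probes depend on the probe, only the order within a column can be read.

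Promoter sequences are shown for the receptors because their genes were higher together on HFD, as all 8 genes were. Of the 8 genes, 7 had an entry in the RefSeq promoter table (build GRCm38.p6), which gives 300 bases around each start site. GAGGAA or its reverse complement TTCCTC, letters in the core of many sites of the myeloid factor PU.1, was searched on both strands, and so was TTCNNNGAA, a palindrome that STAT factors bind. Of 27025 genes, 31.3% hold the former and 9.55% the latter in at least 1 window. Among the 7 genes, 6 have GAGGAA or TTCCTC before at least 1 start site, all but Fcer1g, and Fcgr1 alone has TTCNNNGAA. The windows are chr3:96293920-96294219 on the minus strand for Fcgr1, chr1:171059354-171059653 on the minus strand for Fcgr3 and chr1:171018676-171018975 on the plus strand for Fcgr4. Each is written 5′ to 3′ with matches in capitals.
Fcgr1: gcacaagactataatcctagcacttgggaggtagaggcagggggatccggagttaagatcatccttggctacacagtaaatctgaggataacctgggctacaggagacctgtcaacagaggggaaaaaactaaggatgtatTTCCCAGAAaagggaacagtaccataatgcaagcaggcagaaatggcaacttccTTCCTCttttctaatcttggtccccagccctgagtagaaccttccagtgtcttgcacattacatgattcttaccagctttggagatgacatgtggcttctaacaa
Fcgr3: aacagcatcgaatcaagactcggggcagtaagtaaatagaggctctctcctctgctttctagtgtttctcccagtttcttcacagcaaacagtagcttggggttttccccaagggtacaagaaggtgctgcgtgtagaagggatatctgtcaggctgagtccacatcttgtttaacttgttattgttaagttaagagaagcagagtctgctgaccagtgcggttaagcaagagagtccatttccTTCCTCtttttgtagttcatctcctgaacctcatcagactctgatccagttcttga
Fcgr4: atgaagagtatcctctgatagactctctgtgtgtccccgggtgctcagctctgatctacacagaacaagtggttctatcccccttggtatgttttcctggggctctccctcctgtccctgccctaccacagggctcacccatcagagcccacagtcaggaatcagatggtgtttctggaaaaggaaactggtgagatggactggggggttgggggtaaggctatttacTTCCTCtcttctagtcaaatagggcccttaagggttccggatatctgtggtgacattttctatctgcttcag
In Fcgr1 the STAT letters begin 109 bases and TTCCTC 55 bases before the start site. TTCCTC begins 6 bases before the start site shown in Fcgr3, 15 bases before the other one listed, and 22 bases before that of Fcgr4. Fcgr1 and Fcgr3, on different chromosomes, share ttccTTCCTCtttt, a run of 14 bases that 5 of 32851 promoters hold, 3 of them windows of these genes. Those 3 include the overlapping windows at both Fcgr3 start sites. The run was picked because these windows share it, so its rarity elsewhere is not a test. Runs shared by the other pairs were shorter, with 8 bases for Fcgr1 and Fcgr4, held by 439 promoters. Fcgr3 and Fcgr4 share 10 bases, held by 15 promoters. A match describes letters only, and binding was not measured.

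Fcer1g encodes the common gamma chain, the ITAM adaptor on which the activating Fc gamma receptors depend for signalling and for reaching the cell surface. On chow its signal was 954 in F/F and 916 in LKO, and on HFD 2000.1 in F/F and 3469 in LKO. The chow arrays were equal after scaling (difference -0.00), and on HFD LKO was 1.54-fold higher. HFD against chow gave 0.82 in F/F and 1.45 in LKO. Its promoter window, chr1:171234300-171234599 on the minus strand, holds neither set of letters.

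Tyrobp encodes DAP12, the ITAM adaptor of Trem2 and many other myeloid receptors. Its probe gave 1934 in F/F and 1756 in LKO on chow, and 3391 and 6329.8 on HFD. On chow the genotypes differed by -0.08, less than the spread of replicate spots, and on HFD LKO was higher by 0.73, or 1.66-fold. The diet difference was 0.56 in F/F and 1.38 in LKO. Both adaptors thus shared an order of arrays with LKO HFD first, F/F HFD next and the chow arrays level.

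Syk is the kinase that binds the phosphorylated ITAM through a pair of SH2 domains. Its brighter probe gave 137 in F/F and 122 in LKO on chow, and 254 and 464 on HFD. Its dimmer probe had 12.7 in F/F and 10.6 in LKO on chow, and 17.7 and 39.5 on HFD. The lowest signals well above background were between 7.80 and 8.35, close to its chow signals. Both probes put LKO HFD highest and LKO chow lowest. They gave 0.70 and 0.99 for LKO against F/F on HFD, -0.11 and -0.20 on chow, and 1.46 and 1.42 for the diet in LKO. In F/F they differed more, since the brighter probe gave 0.65 for HFD against chow and the dimmer one 0.23. Of the start sites listed for Syk, the second has GAGGAA 9 bases before it and the other has none in its window.

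Clec7a is Dectin-1, the receptor for fungal beta-glucan, which carries a single-tyrosine version of the motif (a hemITAM) in its own tail and reaches Syk without an adaptor. Its signal on chow was 12.0 in F/F and 10.3 in LKO, and on HFD 43.9 in F/F and 89.2 in LKO, and the LKO chow spot was not well above background. Where a spot is not well above background its level is only a bound, and the fold is given as at least the brighter signal over the higher of that spot's own signal and the lowest signal well above background on its array, both scaled. On HFD, Clec7a was 1.81-fold higher in LKO (0.86), and in F/F it was 3.07-fold higher on HFD than on chow (1.62). In LKO it was at least 6.26-fold higher on HFD than on chow. On chow F/F exceeded LKO at least 1.13-fold. With the normexp alternative it moved most of the 8 genes, to 0.39 for LKO against F/F on HFD, 0.28 for the diet in F/F and 0.73 for the diet in LKO. The direction on HFD was kept, but the size of these differences is poorly fixed. A fold given as at least is a bound under the reported processing only, and normexp gave less here.

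Clec12a is an inhibitory lectin of myeloid cells that carries an ITIM and senses uric acid crystals and dying cells. It had 343 in F/F and 325 in LKO on chow, and 872 and 1663 on HFD. Both HFD arrays were well above both chow arrays, and LKO HFD was the highest. The difference between the genotypes was 0.76 on HFD and -0.02 on chow, and HFD against chow gave 1.10 in F/F and 1.88 in LKO. An inhibitory receptor was therefore higher on the same array as the activating ones.

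Clec12a and Clec7a lie in the same group of lectin genes on chromosome 6. Their windows both hold the PU.1 letters, 96 and 90 bases before the start sites listed for Clec7a, and in Clec12a on each strand at 61 and 47 bases before its start. The Clec12a window, chr6:129349994-129350293 on the plus strand, is the only one among the 7 genes with a pair of matches to these letters.
Clec12a: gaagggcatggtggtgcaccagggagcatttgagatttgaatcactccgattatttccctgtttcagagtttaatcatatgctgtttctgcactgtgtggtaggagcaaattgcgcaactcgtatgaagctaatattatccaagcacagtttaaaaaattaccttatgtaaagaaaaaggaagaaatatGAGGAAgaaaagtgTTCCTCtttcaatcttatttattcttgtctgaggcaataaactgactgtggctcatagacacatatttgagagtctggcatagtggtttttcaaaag

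In the comparison of LKO with F/F on HFD, 8 of 8 genes were higher in LKO, with log2 differences from 0.63 to 1.06 and a median of 0.77, each beyond the spread between probes. The median over 15528 genes with a value was -0.03, and 45.9% of them were higher. From 92.9% to 97.9% of all genes had a lower difference than these 8. At least 2-fold higher was 1 of the 8, Fcgr1, where 2.36% of all genes were at least 2-fold higher, and 0 were at least 2-fold lower, where 1.91% of all genes were.

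On chow, LKO and F/F were close. The 8 differences lay between -0.27 and 0.20 with a median of -0.06, and all 8 were within the spread between probes. For 4 of them, Fcgr4, Fcer1g, Tyrobp and Clec12a, the difference was also within the spread of replicate spots. The sign was negative for 7 genes, but with normexp correction it turned for Fcgr4 and Clec12a, to 0.00 and 0.01. None reached 2-fold in either direction (0 of 8), where 1.11% of all genes were at least 2-fold higher and 1.03% at least 2-fold lower, and the median over 14981 genes was 0.00.

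Diet differences were positive for 8 of 8 genes in both genotypes, against 47.8% of all genes in F/F and 43.5% in LKO. In F/F they ran from 0.43 to 1.62 with a median of 0.75, against -0.02 over 15358 genes. At least 2-fold higher were 2 of 8, Clec7a and Clec12a, with 5.21% of all genes at least 2-fold higher, and 0 of 8 were at least 2-fold lower, with 2.94% of all genes. In LKO they ran from 1.01 to 2.65 with a median of 1.57, against -0.07 over 15242 genes. There 8 of 8 were at least 2-fold higher, where 8.12% of all genes were, and 0 of 8 at least 2-fold lower, where 4.07% were. The diet comparisons and the genotype comparisons share arrays, LKO HFD among them, so a high value on that array enters both.

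**Figure D2:**
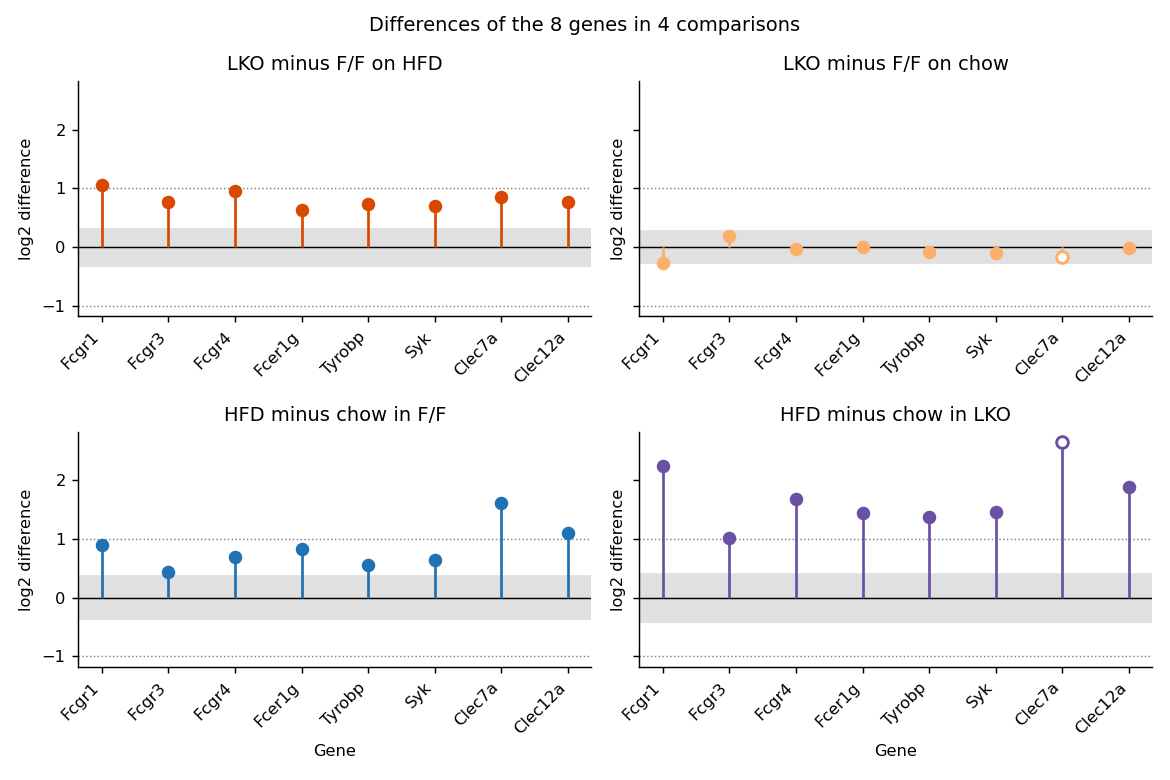
Log2 differences of the 8 genes in the 4 comparisons, each between a pair of arrays, with the SD between probes of a gene as a grey band, 2-fold as dotted lines and open circles for bounds. All 8 lie above the band on HFD and in both diet comparisons and inside it on chow.

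**Figure D3:**
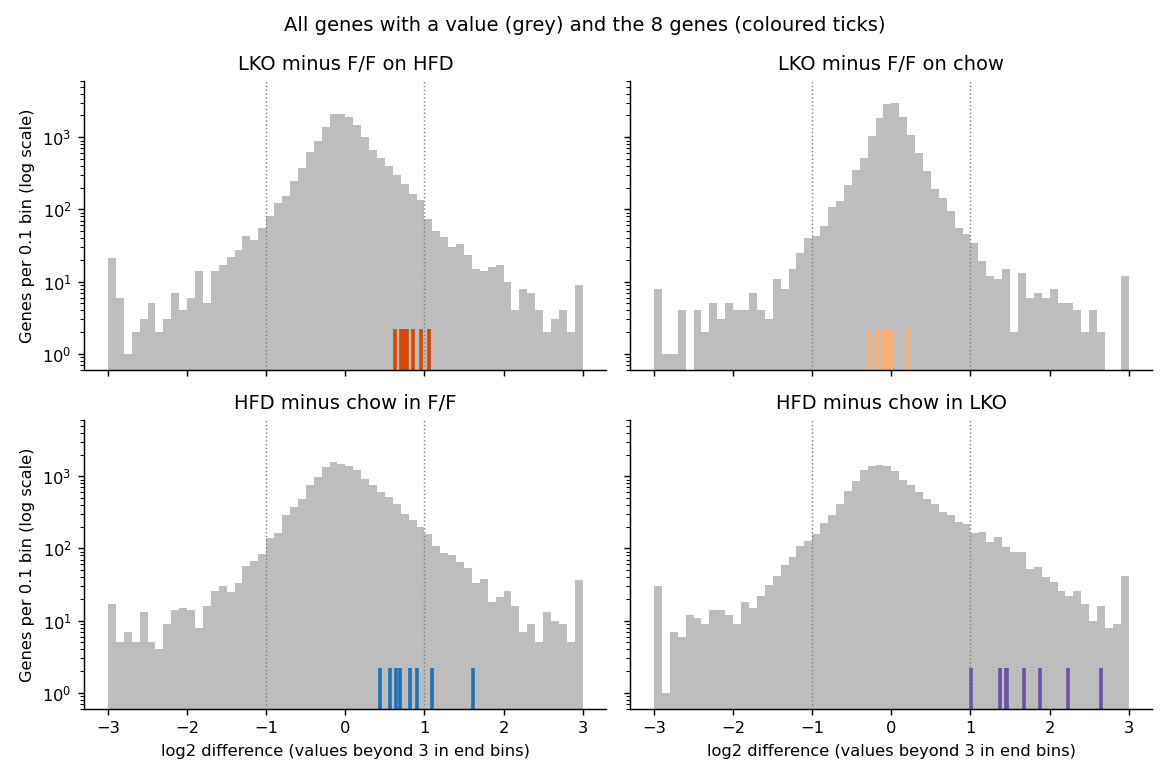
Number of genes, on a log scale, by log2 difference in each comparison (grey), with ticks for the 8 genes and dotted lines at 2-fold. The ticks lie on the right flank in 3 of the 4 comparisons and around 0 for LKO minus F/F on chow.

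The plot of differences shows how even the genotype difference on HFD was across receptors, adaptors, kinase and lectins, with values from 0.63 for Fcer1g to 1.06 for Fcgr1. Diet differences varied more between the genes. The histogram over all genes places the same values among the other genes, most of which differed little between any pair of arrays. All 8 genes were highest on LKO HFD, and 7 were lowest on LKO chow, with a span from lowest to highest array of 1.21 to 2.65. In these 7 the order from the top was LKO HFD, then F/F HFD, then F/F chow, then LKO chow. The share of all genes with this highest array, lowest array or order was not counted. Neighbours in that order differed by more than the spread of replicate spots, except the chow arrays for Fcgr4, Fcer1g, Tyrobp and Clec12a. For Fcgr3 the order was LKO HFD, F/F HFD, LKO chow and F/F chow, with steps of 0.77, 0.24 and 0.20.

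Of all genes well above background on the 4 arrays, those nearest to the mean profile of the 7 well measured genes were Hk3, Slc38a1, Fam124a, Emp3, Itga6, Prmt2, Coro1a, Laptm5, Ctss and Rgs10. Likeness was the root mean square difference of log2 profiles centred on each gene's own mean, over 4 arrays and 13974 genes, and it was 0.01 for Hk3 and 0.05 for Rgs10. Hk3, a hexokinase, had signals of 315 in F/F and 287 in LKO on chow, and of 619 and 1200.3 on HFD. Ctss, the lysosomal protease cathepsin S, had 3727 in F/F and 3663 in LKO on chow, and 7279.7 and 15444 on HFD. Among the 7 genes themselves Fcgr4 lay closest to their mean, at 0.06, and Fcgr3 and Fcgr1 farthest, at 0.24 each. With only 4 arrays many genes share a shape, and 535 genes lay nearer to the mean than Fcgr1 did.

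**Figure D4:**
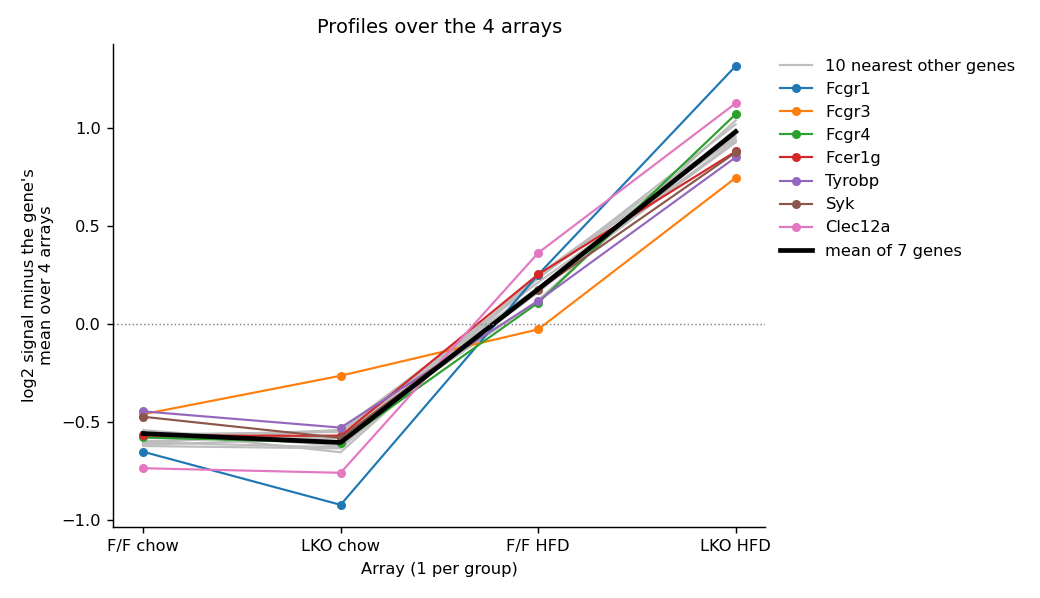
Log2 signal of each gene on the 4 arrays, 1 per group, centred on the gene's own mean, for the 7 genes well above background throughout (coloured), their mean (black) and the 10 nearest other genes (grey). On chow the mean lies at -0.56 in F/F and -0.60 in LKO, and on HFD at 0.18 in F/F and 0.98 in LKO.

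In the plot of centred profiles Fcgr1 is the steepest line and Fcgr3 the flattest, and both meet the other genes in being highest on LKO HFD.

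Other Fc receptors gave mixed values. Of 14 genes listed, 4 were not well above background on any array (Fcer1a, Ms4a2, Fcamr and Fcrlb). The median difference was 0.09 for LKO against F/F on HFD, -0.01 on chow, 0.05 for the diet in F/F and 0.03 in LKO. With genes dim on any array dropped, it was -0.05 for the genotype on HFD, -0.04 for the diet in F/F and -0.18 in LKO. In this list 5 of 9 measured genes were higher in LKO on HFD, led by Fcrla with 0.83 and Fcrl1 with 0.42, both dim. On chow both were not well above background, and HFD exceeded chow at least 1.10-fold and 1.24-fold in F/F and at least 1.81-fold and 1.54-fold in LKO. Fcgr2b, the inhibitory IgG receptor, which in liver is abundant on sinusoidal endothelium, had 549 in F/F and 523 in LKO on chow, and 913 and 974 on HFD. It was higher on HFD in both genotypes, by 0.49 in F/F and 0.43 in LKO, while the genotypes differed by -0.07 on HFD and -0.02 on chow. Its other probe gave 0.42 and 0.43 for the diet and 0.07 and 0.05 for the genotype. Pigr, which carries IgA into bile, was lower on HFD than on chow, by -0.64 in F/F and -0.40 in LKO. Fcmr, the IgM receptor, was dim and was higher in LKO by 1.68 on chow and by 0.23 on HFD.

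Receptors that signal through Fcer1g or Tyrobp gave mixed values. The median of the list was 0.27 for LKO against F/F on HFD, within the spread between probes, 0.05 on chow, 0.60 for the diet in F/F and 1.19 in LKO, and 16 of 21 measured genes were higher in LKO on HFD. With normexp the medians were 0.16 for the genotype on HFD, and 0.25 in F/F and 0.53 in LKO for the diet, and with the dimmest probe the genotype gave 0.53 on HFD and -0.09 on chow. Trem2, a lipid-sensing partner of Tyrobp, had signals of 36.7 in F/F and 54.3 in LKO on chow, and of 353 and 1871 on HFD, with differences of 2.24 between the genotypes on HFD and 4.63 between the diets in LKO. Sirpb1a differed by 1.38 and Clec5a by 0.98 on HFD, and Cd300lb was at least 3.84-fold higher in LKO. On chow Clec5a was at least 3.18-fold higher in LKO. For LKO against F/F on HFD, Trem1 gave -0.12 and Pira2 -0.13. Clec4e, a receptor for mycobacterial and dead-cell lipids that pairs with Fcer1g, was at least 7.18-fold higher on HFD in LKO and 1.63 higher on the log2 scale in F/F. On chow its F/F level was at least 2.42-fold that in LKO, and on HFD the genotypes differed by -0.06.

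Inhibitory receptors with an ITIM had medians of 0.51 for LKO against F/F on HFD, 0.07 on chow, 0.53 for the diet in F/F and 0.94 in LKO, and 14 of 18 were higher in LKO on HFD. With no filter and no floor the diet median in LKO was 0.62. Among genes well above background on both arrays, Siglecf led on HFD with 1.96, followed by Cd72 with 0.91 and Cd300a with 0.71. By the same limit, Cd72, Lair1 and Sirpa were the highest in the diet comparisons, with 1.32, 1.31 and 1.29 in F/F and 1.92, 1.83 and 1.82 in LKO. Siglecf, dim on chow, was at least 6.94-fold higher on HFD in LKO. Ceacam1, which hepatocytes also make, was lower in LKO on HFD (-0.39). The phosphatases and docking proteins that ITIM receptors recruit were higher in LKO on HFD in 7 of 7 cases, with a median of 0.44, against 0.02 on chow. Their diet medians were 0.52 in F/F and 0.70 in LKO, and with the dimmest probe the latter was 0.29. With normexp the genotype median on HFD was 0.29 and the diet median in F/F 0.27. Dok2 differed most in LKO on HFD, by 0.84. Ubash3b was higher in LKO by 0.76 on HFD and by 1.01 on chow. Inpp5d, the lipid phosphatase SHIP, was higher on HFD by 0.73 in F/F and 1.19 in LKO.

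Src-family kinases and their regulators, which act before Syk, had a median of 0.47 for LKO against F/F on HFD, and 11 of 12 were higher. On chow the median was -0.03, for the diet in F/F -0.02 and in LKO 0.53. Normexp put the genotype median on HFD at 0.20 and the diet median in LKO at 0.17, and the mean of all probes put that in F/F at 0.18. Fgr, a kinase of myeloid cells, was higher on HFD by 0.45 in F/F and 1.18 in LKO. Ptprc, the CD45 phosphatase that activates these kinases, was higher in LKO on HFD by 0.62, and in F/F the diet difference was 0.52.

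The 32 Syk substrates and downstream genes had medians of 0.36, -0.02, 0.13 and 0.56, given here and further on in the order genotype on HFD, genotype on chow, diet in F/F and diet in LKO, and 25 of 32 were higher in LKO on HFD. With normexp the genotype median on HFD was 0.21 and the diet median in LKO 0.19. Blnk, a Syk adaptor of B cells and macrophages, had the highest difference in each of the comparisons among genes of the list well above background on both arrays, with 1.30, 0.51, 1.55 and 2.34. Pik3r1, a broadly made subunit of phosphoinositide 3-kinase, was lower in LKO on HFD (-0.35). Plcg2 was higher on HFD by 0.81 in F/F and 1.32 in LKO. NADPH oxidase, which makes the oxidative burst after Fc receptor engagement, was higher in LKO on HFD in 7 of 7 subunits, with a median of 0.73. The medians of its other comparisons were -0.02 on chow, 0.60 for the diet in F/F and 1.35 in LKO. Cybb, the catalytic subunit, had signals of 51.1 in F/F and 61.1 in LKO on chow, and of 138.6 and 267.7 on HFD.

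Output genes of the Card9 and NFAT pathways did not share a diet pattern. Their medians were 0.43, -0.20, -0.07 and 0.21 in the same order of comparisons, with 10 of 11 higher in LKO on HFD. The diet median in F/F is not fixed, since it was 0.69 with the dimmest probe of each gene and -0.21 when genes dim on any array were dropped, and that in LKO was -0.13 with no filter and no floor. With normexp the genotype medians were 0.23 on HFD and -0.06 on chow. Of the list, 5 of 16 were not well above background on any array (Il10, Il23a, Csf2, Ptgs2 and Egr3). Cxcl1, a chemokine for neutrophils, had 22969 in F/F and 11082 in LKO on chow, and 1870.3 and 4826 on HFD, so it was far higher on the chow arrays. Tnf was also higher on chow, with diet differences of -2.35 in F/F and -2.06 in LKO. Egr2 went the other way, at 2.07 and 2.85, and so did Ccl2 at 1.96 and 2.75.

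Antibody and pentraxin ligands could hardly be followed, because only 4 of 12 listed genes matched a probe and no immunoglobulin chain was among them. The medians of 3 genes with a value were 0.42, 0.19, -0.31 and -0.28. With no filter and no floor the value for the genotype on HFD was 0.13, and with normexp that for the diet in F/F was -0.19. Jchain, which joins IgA and IgM and marks plasma cells, was higher in LKO on HFD by 1.51, and Crp was lower on HFD than on chow by -0.76 in F/F and -0.56 in LKO. Ptx3 was not well above background on any array.

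Among ITAM proteins of lymphocytes the medians were 0.45, -0.11, -0.20 and 0.80, with 5 of 7 higher in LKO on HFD. With no filter and no floor the genotype median on HFD was 0.26 and the diet median in F/F -0.05. With normexp the diet median in LKO was 0.41, and with the dimmest probe the genotype median on chow was -0.03. Cd3g was higher in LKO on HFD by 1.27, while Zap70, the relative of Syk in T cells, was lower by -0.31 and Cd247 by -0.14. Lectins of the hemITAM group and their relatives, which include Clec7a and Clec12a, had medians of 0.51, -0.01, 0.44 and 0.80, with 5 of 8 higher in LKO on HFD. With normexp correction they were 0.20 for the genotype on HFD, and -0.02 in F/F and 0.10 in LKO for the diet. Clec2h and Clec2d were lower on HFD than on chow, by -1.40 and -0.69 in F/F and by -2.19 and -1.38 in LKO. Both were also lower in LKO than in F/F on HFD, by -1.21 and -0.37. Transcription factors and growth factor receptors of myeloid cells had medians of 0.43, 0.04, 0.56 and 0.83, and 11 of 17 were higher in LKO on HFD. Their genotype median on HFD was 0.05 with the mean of all probes, and with normexp the diet median in LKO was 0.55. Spi1, which encodes PU.1, was dim, with 16.7 for F/F and 32.2 for LKO on the HFD arrays (0.78) and signals not well above background on either chow array. Csf2rb2 was higher in LKO on HFD by 0.98.

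**Figure D5:**
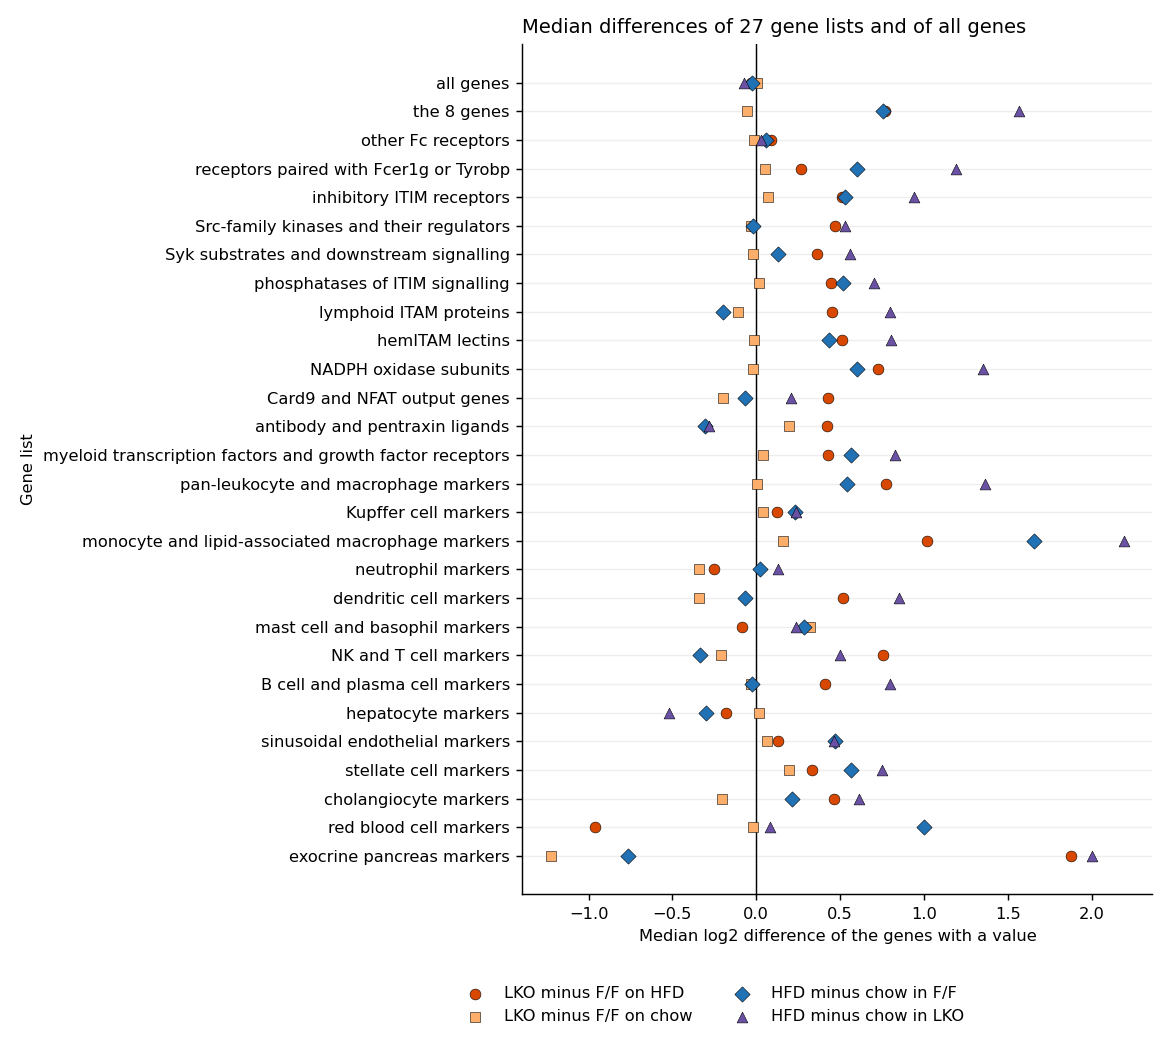
Median log2 difference over the genes with a value in each of 27 gene lists, and over all genes, in the 4 comparisons between arrays of 1 per group. The 8 genes stand at 0.77 for LKO minus F/F on HFD and 1.57 for HFD minus chow in LKO, the pan-leukocyte and macrophage markers at 0.77 and 1.36, and hepatocyte markers at -0.18 and -0.52.

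The plot of list medians sets the 8 genes beside markers of the cells that a liver sample holds. The lists share some genes, 5 of 8 for ITAM proteins of lymphocytes, 4 of 10 for B and plasma cells, 4 of 14 for NK and T cells and at most 3 in any other list, not counting Clec7a and Clec12a among the lectins. Pan-leukocyte and macrophage markers, 21 of 21 well above background on every array, gave medians of 0.77, 0.00, 0.54 and 1.36, close to those of the 8 genes, and 20 of 21 were higher in LKO on HFD. Their summed level, in multiples of the 75th percentile of the array, reached 95.4 in F/F and 94.3 in LKO on chow, and 136.0 and 215.7 on HFD. Ctss had the highest mean level over the arrays, which is what the most abundant gene of a list means here, though it was the brightest only on LKO HFD. Because probes differ in brightness, sums and this naming describe a list and do not rank genes by transcript number. For the 8 genes the summed level reached 17.9 in F/F and 17.4 in LKO on chow, and 29.1 and 48.7 on HFD, with Tyrobp the most abundant. Itgax, the integrin CD11c, differed most on HFD, by 1.48 between the genotypes, and Cd14 by 1.14. The part of these cells in the differences of the 8 genes was not tested.

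Macrophage subsets did not move alike. Kupffer cell markers, 10 of 10 well above background, had medians of 0.12, 0.04, 0.23 and 0.24 and a summed level of 140.2 in F/F and 132.9 in LKO on chow, and 164.4 and 189.4 on HFD, with Cd5l the most abundant. Quantile normalization put the diet median in LKO at 0.39. Within the list 5 of 10 were higher and 5 lower in LKO on HFD. The scavenger receptor Marco had 6849 in F/F and 4474 in LKO on chow, and 6892 and 2481 on HFD. Timd4, a marker of long-resident Kupffer cells, differed by -0.95 between the genotypes on HFD, whereas Vsig4 differed by 0.69 and Cd5l by 0.68. Markers of monocytes and lipid-associated macrophages had medians of 1.02, 0.16, 1.66 and 2.19, and 13 of 14 were higher in LKO on HFD. Their summed level reached 32.4 in F/F and 49.1 in LKO on chow, and 65.7 and 137.5 on HFD. Fabp5 had the highest mean level over the arrays, but other genes of the list were brighter on both HFD arrays. The genotype median on HFD was 0.58 when genes dim on any array were dropped. With normexp the diet medians were 0.95 in F/F and 1.33 in LKO, and the genotype median on chow was 0.09. Gpnmb differed by 2.45, Trem2 by 2.24 and Mmp12 by 2.10 between the genotypes on HFD, and in F/F Mmp12 on HFD was at least 17.5-fold above chow. None of the 14 was below background on all arrays.

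Neutrophils can make Fcgr3, Fcgr4 and Clec12a. The medians of 14 of 15 neutrophil markers with a value were -0.25, -0.34, 0.02 and 0.13, and 3 of 14 were higher in LKO on HFD. Summed, they reached 75.6 in F/F and 68.2 in LKO on chow, and 68.3 and 56.0 on HFD. Most of that sum came from Csf3r, the most abundant, and Ngp was not well above background on any array. In LKO on HFD, S100a9 and S100a8 were lower, by -0.74 and -0.68, and Ltf and Mpo, both dim, were higher, by 1.23 and 0.65. Ltf was at least 4.599-fold higher on HFD than on chow in LKO. With normexp the genotype medians were -0.14 on HFD and -0.09 on chow. The diet median in LKO has no fixed sign, at -0.07 with normexp and 0.33 with no filter and no floor. Mast cells and basophils can make Fcer1g, and 6 of 9 of their markers (Cpa3, Mcpt4, Cma1, Ms4a2, Mcpt8 and Prss34) were not well above background on any array. Summed, they reached 0.533 in F/F and 0.601 in LKO on chow, and 0.622 and 0.623 on HFD, most of it from Kit, the most abundant. The medians of 3 genes were -0.08, 0.32, 0.28 and 0.24. With normexp the chow value was 0.12 and the diet values were negative. The part of these cells in the values of the 8 genes was not tested.

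Dendritic cell markers had medians of 0.52, -0.34, -0.07 and 0.85, with 8 of 9 higher in LKO on HFD. Summed, they reached 68.9 in F/F and 71.3 in LKO on chow, and 57.8 and 55.6 on HFD, most of it from Siglech, and Xcr1 was not well above background on any array. Flt3 differed by 1.08 on HFD. Markers of NK and T cells had medians of 0.76, -0.21, -0.33 and 0.50, with 9 of 11 higher in LKO on HFD, a summed level of 22.2 in F/F and 19.7 in LKO on chow and of 16.6 and 16.4 on HFD, Cd4 as the most abundant gene, and Ncr1 and Eomes not well above background on any array. Gzma differed by 1.13 on HFD. B cell and plasma cell markers gave 0.41, -0.03, -0.03 and 0.80, with 7 of 9 higher in LKO on HFD, and a summed level of 11.2 in F/F and 10.7 in LKO on chow, and 9.18 and 10.7 on HFD. Sdc1, their most abundant gene, gave most of the sum, and Cd79a was not well above background on any array. These values moved far with the normexp alternative, where the genotype median on HFD was 0.13 for dendritic cells, 0.13 for NK and T cells and 0.08 for B and plasma cells. The diet medians in LKO then were 0.10, -0.07 and -0.02, and the genotype medians of dendritic and of NK and T cells on chow were -0.06 and -0.09. With the dimmest probe the NK and T cell diet medians were -0.19 in F/F and 1.18 in LKO. For none of these groups was its part in the result tested.

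Among the other cells of the liver, hepatocyte markers had medians of -0.18, 0.02, -0.30 and -0.52 and a summed level of 6198 in F/F and 6285 in LKO on chow, and 4972 and 4419 on HFD. Here 10 of 12 were lower in LKO on HFD, and Alb was the most abundant. The negative medians depended on scaling: quantile normalization gave 0.00 for the genotype on HFD, and -0.01 in F/F and -0.09 in LKO for the diet. Sinusoidal endothelial markers had medians of 0.13, 0.06, 0.47 and 0.47 with 7 of 10 higher in LKO on HFD, and a summed level of 49.7 in F/F and 52.0 in LKO on chow, and 61.8 and 62.2 on HFD, led by Clec4g. Stellate cell markers had medians of 0.33, 0.20, 0.57 and 0.75, with 8 of 8 higher in every comparison, and a summed level of 10.5 in F/F and 11.4 in LKO on chow, and 15.7 and 18.7 on HFD, led by Acta2. Cholangiocyte markers gave 0.46, -0.20, 0.21 and 0.61, with 6 of 6 higher in LKO on HFD, and a summed level of 5.22 in F/F and 4.80 in LKO on chow, and 13.7 and 15.7 on HFD, most of it from Spp1, which macrophages also make. With normexp the medians of this list were 0.20, -0.02, 0.09 and 0.25. The part of these cells in the differences of the 8 genes was likewise not tested.

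Blood and pancreas were checked because they can enter a liver sample. Red blood cell markers had medians of -0.96, -0.02, 0.997 and 0.08, and 5 of 5 with a value were lower in LKO than in F/F on HFD, where the 8 genes were higher. They summed to 171.9 in F/F and 170.7 in LKO on chow, and to 342.8 and 173.6 on HFD, with Hba-a1 the most abundant. Exocrine pancreas markers had medians of 1.87, -1.22, -0.77 and 2.001 and a summed level of 26.1 in F/F and 15.1 in LKO on chow, and 13.6 and 50.5 on HFD, with Amy2a5 the most abundant and 10 of 10 well above background on every array. In F/F 10 of 10 pancreas markers were lower on HFD than on chow, while 8 of 8 Fc receptor and ITAM genes were higher. On LKO HFD both were at their highest, and the part of pancreas RNA in that array's values was not tested.

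Position on the chromosome was looked at after the arrays had been seen. In the RefSeq table, Fcgr4, Fcgr3 and Fcer1g lie on chromosome 1 within a stretch of 42 genes that begins with Fcgr2b, 25 of them tRNA genes and 11 protein-coding. Of its 8 other genes above background, 1 was higher in LKO on HFD (Tomm40l, 0.33), and their median was -0.16. The nuclear receptor gene Nr1i3, a hepatocyte gene between them, gave -0.63. The stretch from Clec12a to Clec7a on chromosome 6 holds 7 genes, and all 3 others above background were higher in LKO on HFD, with Clec1b at 0.46, Clec9a at 0.56 and Clec1a at 0.65. Clec1b, which sinusoidal endothelium and Kupffer cells make in mouse liver, was also higher on HFD than on chow, by 0.58 in F/F and 0.86 in LKO. Neighbours of the Fc receptor genes thus did not share their genotype difference on HFD. Neighbours of the lectin genes, which are lectin genes themselves, did. For HFD against chow, 6 of the 8 Fc receptor neighbours were higher in F/F (median 0.24) and 5 in LKO (median 0.31). On chow the lectin neighbours differed between the genotypes by 0.00 to 0.77 (median 0.18), whereas Clec12a gave -0.02 and Clec7a was lower in LKO.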

How the data were processed

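Each of 4 groups, set by genotype (F/F or LKO) and diet (chow or HFD), gave liver RNA for 1 Agilent array with a single dye. Per the file headers, Agilent Feature Extraction 12.0.3.1 made the deposited spot intensity by subtracting background and removing spatial trends, without normalization between arrays. The table of values that the authors deposited beside it holds the same intensity times a constant for each array. On chow the constant was 2.60 in F/F and 2.63 in LKO, and on HFD 2.41 and 2.10, and the medians were 34.5, 33.2, 36.1 and 36.0 in that order. How the constants were made is not given in the sources used here.

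Processed signals were taken as log2 minus the 75th percentile of each array over spots that are not controls. Spots of a probe were averaged, those marked as outliers left out. Transcript accessions were looked up in the RefSeq gene table (GRCm38.p6), which named 33767 of 56605 probes (59.7%). The probe with the highest mean stood for a gene. A gene above background on neither array of a comparison had no value, and where only the dimmer array was below background a bound was used, which entered counts and medians. If the brighter signal did not exceed the lowest signal well above background on the other array, after scaling, there was no value. No test was run and no p-value is given. Spread was the SD of replicate spots and of probes of a gene. In place of depth, the share of spots well above background is given.

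Named are the 8 genes with every probe, and from each of 27 gene lists (the 8 genes and 26 others, for pathways and cell types) and each comparison up to 3 of the highest and 2 of the lowest genes well above background on both arrays, bounds of at least 2-fold, markers below background, the 10 genes nearest in profile, and Mboat7. Chromosome neighbours were named after their values had been seen. Some genes that this rule names are not reported here. The 8 genes and the lists were chosen with earlier results of these data known.

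There were 10 alternatives: the percentile over probes well above background, quantile normalization, normexp correction with offset 50 on the median spot signal (the scanner files hold no mean signal), the deposited table of values, the mean of all probes or the dimmest probe of a gene, no filter and no floor, dropping genes dim on any array, and thresholds of 1.5-fold and 4-fold. R 4.3.3 with limma 3.58.1 and Python 3.11.15 with numpy 2.4.6, pandas 2.3.3 and matplotlib 3.10.9 were used. The steps were tested on simulated data.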

Additional observations from a re-analysis of the deposited data

Results flagged for a closer look

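For 3 of the 8 genes the difference between LKO and F/F had opposite signs on the diets and exceeded the spread of replicate spots on both. In sign alone, 7 of the 8 were opposite. How many of all genes meet this rule was not counted, so the 3 have no share to be read against. The chow differences of the 3 were all within the wider spread between probes (SD 0.28), so the sign on chow is not fixed. Fcgr1 was higher in LKO on HFD and lower on chow, and its genotype difference on HFD exceeded that on chow by 1.33 (log2). For Syk the same quantity was 0.81, and for Clec7a it was 1.03, where the LKO chow level is a bound. With the normexp alternative Clec7a gave 0.44, its chow difference (-0.05) was within the spread of replicate spots, and it would not have been singled out. Fcgr1 gave 0.88 and Syk 0.74 with it, and both still would. Each rests on 4 arrays, and whether the genotype difference depends on diet was not tested.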

How the results depend on the processing

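For single genes, 8 alternatives gave 252 values, but 148 equal those reported because the alternative cannot touch them. The deposited table differs only by a constant per array, all genes but Syk have 1 probe, and all but Clec7a were well above background throughout, so that filters leave them as they are. Of the 104 that could differ, 102 kept their sign, the exceptions being Fcgr4 and Clec12a on chow with normexp, and 21 moved by more than the spread of replicate spots. The medians of the 26 other lists in 4 comparisons took 832 values under these alternatives. Of these, 51 had the other sign, 40 of them where the median lay within that spread and 11 where it lay beyond, as given below. Of the 104 medians, 78 differed by more than 1.5 times or in sign under at least 1 alternative, 24 of these being medians within that spread. In each case below the cause was not tested unless the setting itself changes the threshold or the genes used. For LKO against F/F on HFD, the 1 gene at least 2-fold higher became 2 with the percentile over well measured probes, 2 with quantile normalization and 0 with normexp. Over all genes the 366 at least 2-fold higher became 424, 360 and 94 with these settings. Thresholds of 1.5-fold and 4-fold gave 8 and 0. Shares of all genes are given at 2-fold only, so these counts have no share to be read against. For the diet in F/F, the 2 genes became 1 with normexp and 1 when genes dim on any array were dropped, Clec7a among them. Over all genes the 800 at least 2-fold higher became 211 and 602 with these settings. The 2 genes became 6 at 1.5-fold and 0 at 4-fold. For the diet in LKO, 8 became 2 at 4-fold. Here too no share of all genes stands beside the counts at 1.5-fold and 4-fold. The median of the 8 genes for the diet in F/F (0.75) was 0.59 with normexp, and that in LKO (1.57) was 1.66 with quantile normalization, 1.45 with normexp and 1.46 without Clec7a. Medians of lists turned negative with normexp for hemITAM lectins (-0.022) and mast cell markers (-0.031) in F/F, and for neutrophil (-0.068), mast cell (-0.065), NK and T cell (-0.067) and B cell markers (-0.016) in LKO, all for HFD against chow. They did so with no filter and no floor for mast cell markers, at -0.13 in F/F and -0.22 in LKO, and for Card9 and NFAT output genes at -0.13 in LKO. The median of Syk substrates in F/F was -0.024 with the dimmest probe, and that of neutrophil markers in LKO was -0.012 when genes dim on any array were dropped. Over all genes, normexp left 94 at least 2-fold higher and 85 lower for LKO against F/F on HFD, 20 and 19 on chow, 211 and 148 for the diet in F/F and 428 and 240 in LKO. With no filter and no floor the numbers were 996 and 889, 672 and 807, 1366 and 1351, and 1912 and 1508, and that setting put the median over all genes at -0.21 for the diet in LKO. Dropping genes dim on any array gave 199 and 170 on HFD and 76 and 75 on chow. No paired analysis was possible because each group has 1 array. Array number limits every value here, and the spreads given cover spots and probes and not mice. The normexp alternative changes the correction, the offset and the spot signal used together, so moves under it are not put down to any of these. The dimmest signals here are those of Clec7a and the dimmer Syk probe.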
